A study of Danio rerio with 4 samples.

Results

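Keratins, claudins and desmosome proteins build the mechanical and barrier junctions of epithelia, and 53 genes of these families were examined in the hearts of zebrafish embryos with a homozygous deletion in *egr3*, a gene for a zinc finger transcription factor. Genes were taken by name, as keratins (krt), claudins (cldn), desmoplakins, desmocollins, desmogleins, plakophilins, plakoglobins, envoplakin, periplakin and ladinin. *krt94* was left out by the rule, and members had to average 5 or more normalized counts. The names matched 56 genes, of which *krt98* (5 and 7 normalized counts in mutants, 3 and 3 in wild types) and *krt99* (1 and 0 in mutants, 1 and 4 in wild types) were below this level. *cldn2*, with 5 and 0 in mutants and 2 and 13 in wild types, lay exactly on it. The 53 members, of 17501 genes at that level and 19661 in all, were 13 keratins, 21 claudins, 14 genes of the desmosome and cornified envelope, and 5 genes that only share the letters (*krtcap2*, *cldnd1a*, *cldnd1b*, *dscama* and *dscc1*).

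Keratins assemble in pairs of a type I and a type II chain into intermediate filaments, and stratified epithelia such as the larval skin use other pairs than simple epithelia, which mostly use *krt8* and *krt18*. Desmosomes anchor these filaments at the plasma membrane: desmogleins and desmocollins span the gap between cells, plakoglobin and plakophilins bind their tails, and desmoplakin links them to the filaments. Claudins span the membrane at tight junctions and set which ions and solutes pass between cells. In the heart, cardiomyocytes hold desmosomes that bind desmin in place of keratin, endothelial cells use claudin 5, and the skin of the embryo is the main site of the stratified keratins.

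RNA came from hearts dissected at 48 hours post fertilization (hpf). The mutants were homozygous for *bns577*, an 11-bp deletion in *egr3*, and were compared with wild-type siblings. Embryos were sorted by live genotyping at 36 hpf. Each genotype had 2 pools of 20 hearts, here called Mut_1 and Mut_2 for the mutants and WT_1 and WT_2 for the wild types. Bulk RNA-seq reads all cells of a pool together, so that fewer cells of a type and less RNA per cell cannot be told apart. The p-values rest on the spread between pools of a genotype in the deposited values. These lack most of the difference between replicate numbers, so that spread is not the usual one between independent pools.

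Some properties of the libraries bear on every value below. The deposited normalized counts summed to between 9161759 and 9481943 per library. *egr3* transcripts numbered 873 and 889 normalized counts in Mut_1 and Mut_2, against 528 and 537 in WT_1 and WT_2, so that *egr3* separated the libraries by label (difference 0.73 on the log2 scale, crossed difference 0.0009). This level does not read the deletion itself, which the submitters state was seen in the reads of the mutant samples. The run summary of the study gives the library file behind WT_2 a mutant name and the file behind Mut_2 a wild-type name. Genotypes were taken from the labels, and the contrast of WT_1 with Mut_2 against WT_2 with Mut_1, called the crossed contrast here, is also the contrast by library file name. The deposited values held almost no difference between replicate numbers. Over 4834 genes of low level, the average of Mut_1 and WT_1 differed from that of Mut_2 and WT_2 with an SD of 0.02 on the log2 scale, where counting alone would give 0.30. Whatever was taken equally, on a log scale, from both libraries of a number leaves the difference between those libraries as it was, so differences between Mut_1 and WT_1 and between Mut_2 and WT_2 are the main measure here. Values of different numbers are given as deposited and described side by side, with that limit. The genotype difference is the mean of these same-numbered differences, and the crossed difference is formed from how they disagree.

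No member passed the test between genotypes over all genes. In limma, fitted to log2(normalized count + 1) and adjusted by Benjamini-Hochberg, 0 of 53 members had an adjusted p under 0.05, against 0.00571% of all genes tested, which is 1 gene. The lowest adjusted p of a member was 0.126, for *jupb*. An unadjusted limma p under 0.05 was reached by 11 members, 7 with lower and 4 with higher counts in mutants, or a share near the 21.6% over all genes. With the replicate number as a block, 5 members had an unadjusted limma p under 0.05, against 4.9% of all genes. The lowest adjusted p was then 0.841. The block gave larger SEs for members such as *jupb* (0.55, against 0.19) and *pkp2* (0.17, against 0.07). For others, such as *krt4* (1.28, against 1.34), it was slightly smaller. No member is therefore called changed by genotype.

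Counted by size alone, few members separated the genotypes. Both mutants lay at least 1.5-fold below both wild types, as a mean difference, in 4 members (7.55%, against 5.09% of all genes tested), and above them in 4 (7.55%, against 7.03%). Of these, *krt222*, *lad1* and *cldnk* (lower) and *cldn17* (higher) averaged 5 or more only through the genotype with the higher values. The shares over all genes rest on the same filter. The crossed contrast was different. In 18 members (34.0%, against 6.31% of all genes tested), WT_1 and Mut_2 both lay below WT_2 and Mut_1 by at least 1.5-fold. These were 7 of 13 keratins, 7 of 21 claudins and 4 of 14 desmosome and cornified envelope genes. In *krt4*, *krt5*, *krt17*, *krtt1c19e* and *pkp1b*, Mut_1 and WT_1 differed by only 0.01 to 0.34 on the log2 scale. Those genes count in the crossed order, and not by genotype, only by the sign of that small difference. Of the 18, *cldn2*, *cldnf* and *krt1-19d* averaged 5 or more only through WT_2 and Mut_1. The opposite crossed pattern was met by 2 members (3.77%, against 6.13%), *krt15* and *cldn5a*. An absolute crossed difference of at least 1 on the log2 scale was found in 20 members (37.7%), against 8.26% of all genes tested. Since the replicate numbers had nearly equal averages, every member lay apart in 1 of the contrasts, according to whether its same-numbered differences shared a sign. This was the genotype contrast for 22 members (41.5%, against 50.5% of all genes tested) and the crossed contrast for 31 (58.5%, against 44.9%). The crossed contrast joins 1 pool of each genotype on either side and was not tested, so that its counts are a description.

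**Figure D1:**
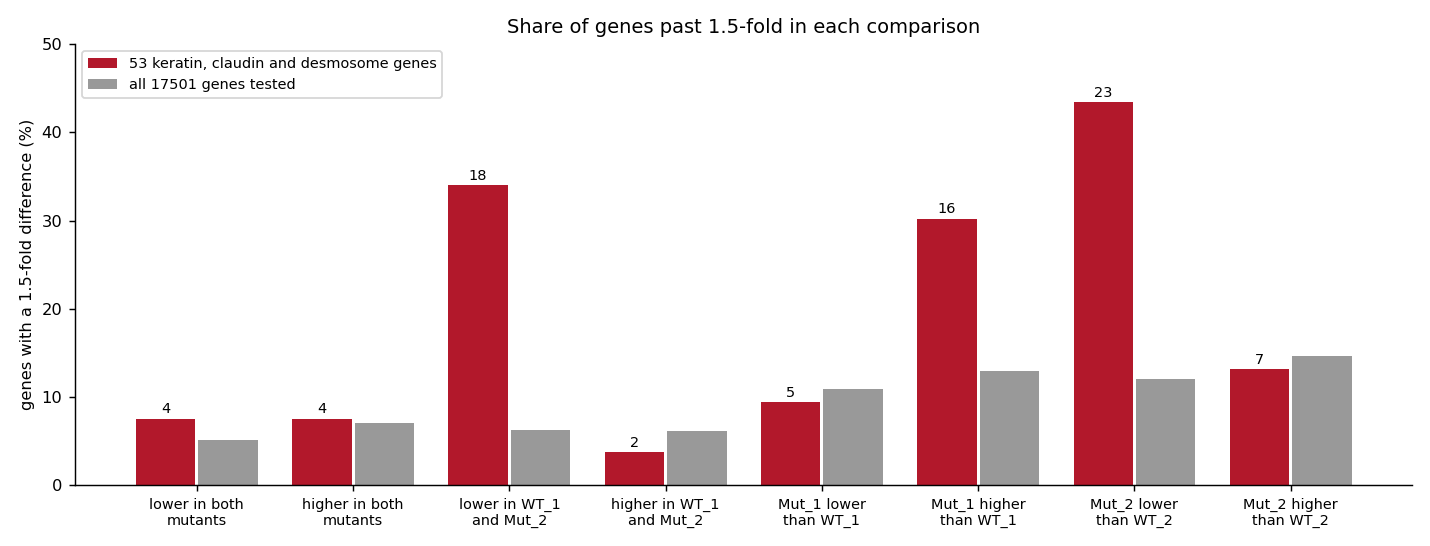
Share of genes with at least a 1.5-fold difference on log2(normalized count + 1), for the 53 members (red, with the number of members above each bar) and for all 17501 genes tested (grey). The first 4 pairs of bars require that the libraries of one side do not overlap those of the other, and the last 4 compare single libraries of the same replicate number. The members stand at 34.0% against 6.31% for lower values in WT_1 and Mut_2, and at 43.4% against 12.1% for lower values in Mut_2 than in WT_2.

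Split by replicate number, the crossed excess lay mostly between Mut_2 and WT_2. Mut_2 was at least 1.5-fold below WT_2 in 23 members (43.4%, against 12.1% of all genes tested) and above it in 7 (13.2%, against 14.6%). Mut_1 was at least 1.5-fold below WT_1 in 5 members (9.43%, against 10.9%) and above it in 16 (30.2%, against 12.9%). In 12 members (22.6%, against 3.51%) the directions were opposed, with Mut_1 above WT_1 and Mut_2 below WT_2 by at least 1.5-fold each. In 22 members (41.5%, against 62.3%) neither pair of libraries differed by 1.5-fold.

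**Figure D2:**
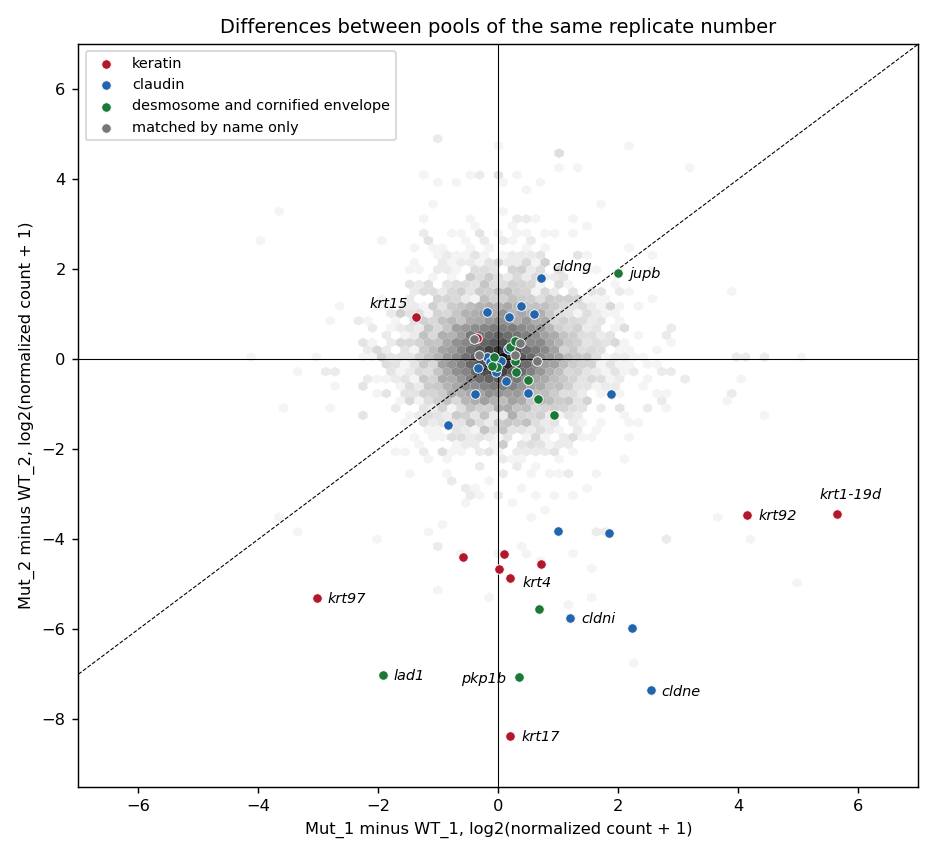
Difference on log2(normalized count + 1) between Mut_1 and WT_1 (horizontal axis) and between Mut_2 and WT_2 (vertical axis) for each member, coloured by family, over the density of all genes tested (grey, log scale). A gene with the same difference in both pairs lies on the dashed line, as *jupb* does, while *krt17* at 0.20 and -8.36 and the claudin *cldne* at 2.54 and -7.35 lie far below it.

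Keratins known from the skin differed widely between libraries. *krt4* (ENSDARG00000017624, chromosome 6 from 39308498 to 39313027 in danRer11), a type II keratin of the outer skin layer in fish, had 2015 and 354 normalized counts in Mut_1 and Mut_2, against 1765 and 10395 in WT_1 and WT_2. WT_2 was far above and Mut_2 far below the remaining libraries, and Mut_1 and WT_1 nearly coincided. Since the replicate numbers had nearly equal averages in the deposited values, a WT_2 above both replicate 1 libraries goes with a Mut_2 below both. The high WT_2 and the low Mut_2 are therefore not separate observations, here or in other genes of this order. The genotype difference was -2.34 on the log2 scale (SE 1.34, adjusted p = 0.388, limma), which did not pass the test, and the crossed difference was -2.53. These are nearly equal because Mut_1 and WT_1 differed by 0.19 alone, so that *krt4* counts in the crossed order only by the sign of that small difference. The same holds for *krt5*, *krt17* and *krtt1c19e*, at 0.09, 0.20 and 0.01 in replicate 1.

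*krt5* (ENSDARG00000058371, chromosome 23 from 10173196 to 10177458), a type II keratin of the skin, had 680 and 149 normalized counts in the mutants and 640 and 3015 in the wild types. Its libraries kept the same order as those of *krt4*, with a genotype difference of -2.12 (SE 1.17, adjusted p = 0.375, limma) and a crossed difference of -2.21. *krt17* (ENSDARG00000094041, chromosome 19 from 5367330 to 5372572), a type I keratin, had 30 and 1 in the mutants, against 26 and 658 in the wild types. Nearly all of its counts lay in WT_2.

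*krt17* lies in a cluster of type I keratins on chromosome 19, in the order *krt1-19d*, *krtt1c19e*, *krt92*, *krt17* and *krt91*, with gaps between neighbours of 3.72 to 15.1 kb. Reads that map to several places were discarded before counting, so that the split between such near copies is uncertain. *krtt1c19e*, a marker of basal epidermal cells, had 299 and 60 normalized counts in the mutants and 297 and 1532 in the wild types. *krt91* had 194 and 31 in the mutants, against 118 and 749 in the wild types. The replicate 1 libraries of *krtt1c19e* lay close together, while the mutant was 1.64-fold higher in those of *krt91*, and the wild type was far above the mutant in replicate 2 in both.

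Their cluster neighbours *krt92* and *krt1-19d* had another order. *krt92* had 389 and 27 normalized counts in the mutants, against 21 and 307 in the wild types, so that the mutant was 17.7-fold above the wild type in replicate 1 and 11.0-fold below it in replicate 2, on the count + 1 scale. *krt1-19d* had 149 and 5 in the mutants and 2 and 64 in the wild types, with same-numbered differences of 5.64 and -3.44 on the log2 scale. Mut_1 was the highest library of both genes. The genotype difference of *krt92* was 0.34 (SE 2.02, adjusted p = 0.937, limma), and that of *krt1-19d* did not pass the test either (SE 2.41, adjusted p = 0.816).

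*krt97* was the keratin with the lowest p in the genotype test. It had 16 and 7 normalized counts in the mutants, against 137 and 314 in the wild types (ENSDARG00000000212, chromosome 22 from 11756040 to 11759106). Both mutants lay below both wild types, by -3.02 in replicate 1 and -5.30 in replicate 2 on the log2 scale. The mean difference was -4.16 (SE 0.62, adjusted p = 0.134, limma). *krt222*, 26.7 kb from it, had 3 and 0 normalized counts in the mutants and 5 and 20 in the wild types, which are few counts for a comparison.

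The simple epithelial keratins varied little, although removal of duplicate reads can compress differences of abundant genes. *krt8* had 3883 and 3941 normalized counts in the mutants and 3996 and 4076 in the wild types, a difference of -0.04 on the log2 scale (SE 0.02, adjusted p = 0.365, limma). Its type I partner *krt18a.1*, 93.6 kb away on chromosome 23, had 3238 and 3249 in the mutants, against 3382 and 3490 in the wild types, a difference of -0.08 (SE 0.03, adjusted p = 0.224). The crossed difference of *krt18a.1* was -0.02, and *krt8*, which lies 72.2 kb from *krt5*, did not share its order of libraries. *krt18b*, 47.4 kb from *krt4*, had 1383 and 1874 in the mutants and 1777 and 1357 in the wild types, with its lowest values in WT_2 and Mut_1, where *krt4* had its highest. *krt15*, a type I keratin, also ran this way, with 54 and 123 in the mutants and 141 and 64 in the wild types. Over the 13 keratins, the median genotype difference was -1.92 and the median crossed difference -2.21 on the log2 scale, against medians of -0.00 and -0.01 over all genes tested. The median same-numbered difference of the keratins was 0.01 in replicate 1 and -4.33 in replicate 2.

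**Figure D3:**
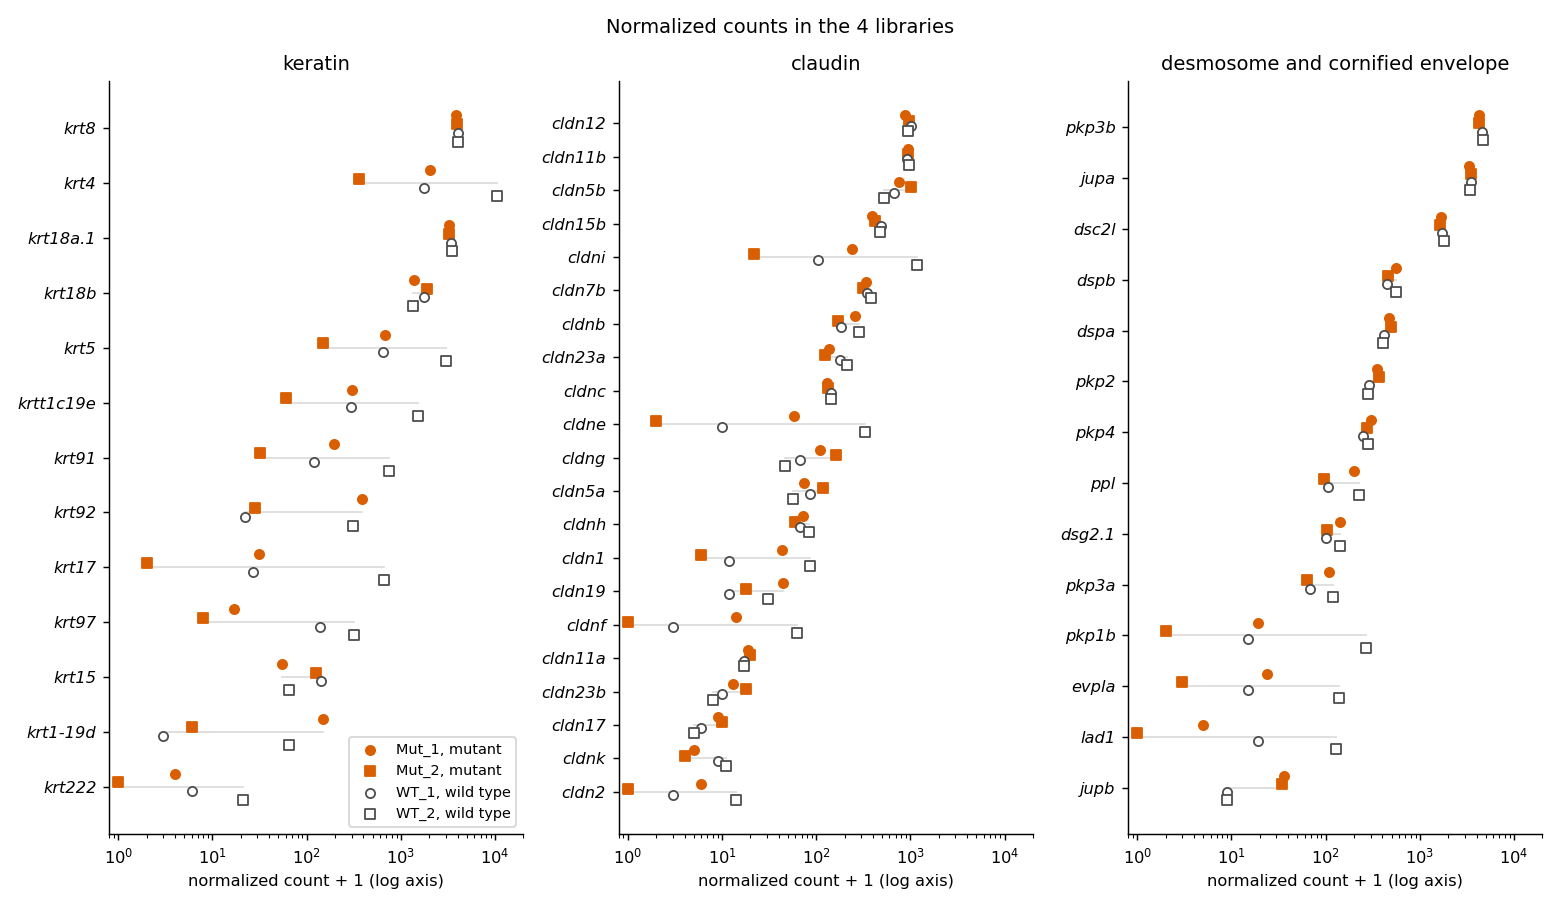
Normalized count plus 1 (log axis) of each keratin, claudin and desmosome or cornified envelope gene in Mut_1 and Mut_2 (filled orange circle and square) and WT_1 and WT_2 (open circle and square), ordered by mean within a family. *krt4*, *krt5*, *krt17*, *cldne*, *cldni*, *pkp1b* and *evpla* span more than 1 power of 10 with the open square highest and the filled square lowest, while *krt8*, *jupa* and *pkp3b* hold all 4 symbols together. With nearly equal averages of the replicate numbers, a highest open square and a lowest filled square are not separate observations. Counts are not divided by gene length, so levels are not comparable between genes.

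Among the claudins, 7 of 21 shared the crossed order of the skin keratins (33.3%, against 6.31% of all genes tested). *cldne* (ENSDARG00000043128, chromosome 15 from 2638884 to 2640966) had 57 and 1 normalized counts in the mutants, against 9 and 326 in the wild types. Its neighbour *cldnf*, 9.82 kb away, had 13 and 0 in the mutants and 2 and 62 in the wild types. *cldni*, on chromosome 3, had 238 and 21 in the mutants, against 103 and 1175 in the wild types. In all 3 genes Mut_1 was above WT_1 and Mut_2 was far below WT_2, with crossed differences of -4.94, -4.10 and -3.47 on the log2 scale.

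Smaller crossed differences came from further claudins. *cldn1*, a barrier claudin of the skin in mammals, had 42 and 5 normalized counts in the mutants and 11 and 86 in the wild types (crossed difference -2.85). *cldn19* had 43 and 17 in the mutants, against 11 and 30 in the wild types, and *cldn2* 5 and 0 against 2 and 13. *cldnb*, a claudin of embryonic skin and lateral line, had 256 and 169 in the mutants and 182 and 286 in the wild types, a crossed difference of -0.62. Its neighbours on chromosome 21, *cldnc* and *cldnh*, did not reach 1.5-fold in either pair of libraries.

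The endothelial claudins went another way. *cldn5b* (chromosome 10 from 43994471 to 43996117) had 765 and 1015 normalized counts in the mutants, against 676 and 528 in the wild types, with both mutants above both wild types. The difference was 0.56 on the log2 scale (SE 0.21, adjusted p = 0.248, limma), just short of 1.5-fold. *cldn5a* had 74 and 116 in the mutants and 85 and 56 in the wild types, which overlap, with a crossed difference of 0.62. A list of 7 endocardial and endothelial markers summed to 20695 and 23119 in the mutants and 21920 and 20309 in the wild types. The sum was highest in Mut_2 and lowest in WT_2. Singly, *kdrl* and *tie1* had this order and the others did not, such as *nfatc1*, with 1872 and 1825 in the mutants and 1549 and 1644 in the wild types. None of the 7 differed by 1.5-fold in either pair of libraries, and their part in the values of these claudins was not tested.

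Of the other claudins, *cldng* (chromosome 1) had 109 and 162 normalized counts in the mutants, against 66 and 46 in the wild types. Both mutants were higher, by 1.25 on the log2 scale (SE 0.30, adjusted p = 0.162, limma). *cldn23a* ran the other way, with 137 and 122 in the mutants and 179 and 209 in the wild types (difference -0.58, SE 0.13, adjusted p = 0.154), while *cldn23b*, 1.69 kb away, had 12 and 17 against 9 and 7. Among weakly detected claudins, *cldn17* had 8 and 9 in the mutants and 5 and 4 in the wild types, and *cldnk* 4 and 3 against 8 and 10. *cldn15b* had 387 and 415 in the mutants, against 491 and 474 in the wild types (difference -0.27, SE 0.07, adjusted p = 0.168). *cldn11b*, *cldn12*, *cldn7b* and *cldn11a* stayed under 1.5-fold in both pairs of libraries.

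Among the desmosome and cornified envelope genes, some held a steady level and some followed the skin keratins. Others, such as *jupb* and *lad1*, lay apart by genotype without passing the test. *jupa* (plakoglobin, ENSDARG00000070787), which also serves adherens junctions, had 3288 and 3470 normalized counts in the mutants and 3446 and 3381 in the wild types. *dsc2l*, a desmocollin, had 1671 and 1615 in the mutants, against 1701 and 1822 in the wild types. *pkp3b* had 4223 and 4226 in the mutants and 4570 and 4728 in the wild types, a difference of -0.14 on the log2 scale (SE 0.03, adjusted p = 0.141, limma). Its ratio of mutant to wild type was 0.909, and those of *dsc2l* and *jupa* were 0.933 and 0.990.

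In humans, loss of plakophilin 2 or desmoplakin causes arrhythmogenic cardiomyopathy. The zebrafish gene *pkp2* (chromosome 4) had 348 and 371 normalized counts in the mutants, against 288 and 279 in the wild types, with both mutants 1.27-fold above the wild types on average (SE 0.07 on the log2 scale, adjusted p = 0.146, limma). *dspa*, a desmoplakin gene, had 472 and 494 in the mutants and 412 and 407 in the wild types, a ratio of 1.18 (adjusted p = 0.165). Its paralog *dspb* had 551 and 459 in the mutants, against 450 and 559 in the wild types, and *dsg2.1*, a desmoglein, 140 and 102 against 99 and 142. Both of the last genes were higher in WT_2 and Mut_1 than in the other libraries, with genotype differences of 0.00 and 0.01. *pkp4* had 300 and 274 in the mutants and 248 and 280 in the wild types.

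*jupb* (ENSDARG00000059067, chromosome 19 from 5480327 to 5590012), the second plakoglobin gene, was the member with the lowest p. It had 35 and 33 normalized counts in the mutants, against 8 and 8 in the wild types. The mutants averaged 34.0 ± 1.41 (SD, n = 2) and did not overlap the wild types. The difference was 1.96 on the log2 scale (SE 0.19, adjusted p = 0.126, limma), with a crossed difference of -0.04. The gene lies 99.6 kb beyond the keratin cluster of chromosome 19, whose members did not share its pattern. Without a trend of variance with level, limma gave *jupb* an adjusted p = 0.049, while no other member passed in that fit. With the replicate number as a block, limma gave *jupb* an SE of 0.55 and an adjusted p = 0.841.

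Of the 14 desmosome and cornified envelope genes, 4 followed the crossed order (28.6%, against 6.31% of all genes tested). *pkp1b* (ENSDARG00000052705), a plakophilin of stratified epithelia, had 18 and 1 normalized counts in the mutants and 14 and 267 in the wild types. Like *krt4*, it counts in the crossed order only by the sign of a small difference in replicate 1, of 0.34 on the log2 scale. *evpla* (envoplakin) had 23 and 2 in the mutants, against 14 and 139 in the wild types. *ppl* (periplakin), which pairs with envoplakin, had 200 and 95 in the mutants and 105 and 227 in the wild types. In *pkp1b*, *evpla* and *ppl* WT_2 was highest and Mut_2 lowest, which are not separate observations, as for *krt4*. Their crossed differences were -3.70, -3.11 and -1.09. *pkp3a* had 107 and 63 in the mutants, against 67 and 118 in the wild types, a crossed difference of -0.78, unlike its paralog *pkp3b*.

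*lad1* (ladinin, a basement membrane protein in mammals; ENSDARG00000022698, chromosome 23 from 5687972 to 5719453) had 4 and 0 normalized counts in the mutants and 18 and 128 in the wild types. Both mutants were lower, by -1.93 in replicate 1 and -7.01 in replicate 2 on the log2 scale, with a mean of -4.47 (SE 1.37, adjusted p = 0.204, limma). The second value rests on a library listed at 0 and depends on the added count of 1.

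The 5 members that only share the letters differed little. *krtcap2*, a subunit of the glycosylation complex of the endoplasmic reticulum, had 730 and 697 normalized counts in the mutants, against 605 and 655 in the wild types. *dscc1*, a DNA replication factor, had 452 and 530 in the mutants and 567 and 500 in the wild types. The largest same-numbered difference among the 5 was 0.65 on the log2 scale, for *cldnd1a*, and none of them met either 1.5-fold count of the full contrasts. Without these 5 genes, 18 of 48 members (37.5%, against 6.31% of all genes tested) were lower in WT_1 and Mut_2.

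Junction genes outside the rule were read from a list of tight junction, adherens junction, hemidesmosome and other filament genes. Of 45 at the same level, 0 had an adjusted p under 0.05 in limma. An unadjusted limma p under 0.05 was reached by 10, against 21.6% of all genes tested, and 3 of these had lower and 7 higher counts in mutants. By 1.5-fold, 0 were lower in both mutants (against 5.09% of all genes tested) and 2 higher (4.44%, against 7.03%), *ctnna2* and *itgb4*. In the crossed contrast 3 were lower (6.67%, against 6.31%) and 3 higher (6.67%, against 6.13%) in WT_1 and Mut_2. The median crossed difference of this list was -0.02, against -0.30 for the 48 members of the families. Occludin and a scaffold of epithelial tight junctions had the order of the skin keratins, as *oclna* had 262 and 167 normalized counts in the mutants and 167 and 270 in the wild types, and *tjp3* 73 and 41 against 59 and 108. Filaments of muscle and nucleus did not, with *desma* (desmin) at 3057 and 3024 in the mutants and 3121 and 3267 in the wild types. The tight junction genes *tjp2a* and *cgna* ran the opposite way. *tjp2a* had 94 and 145 in the mutants, against 136 and 91 in the wild types, and *cgna* 5 and 23 against 8 and 2.

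Part of the skin markers that are not members had the same order of libraries. Of 15 epidermis and periderm markers at this level, 7 were lower in WT_1 and Mut_2 by 1.5-fold (46.7%, against 6.31% of all genes tested). Like the other lists, this list was chosen with earlier results of these data known, so the share is no independent support. In the same contrast 0 were higher (against 6.13%). By genotype, 1 was lower in both mutants (6.67%, against 5.09%) and 0 were higher (against 7.03%). The list summed to 7543 and 6770 normalized counts in the mutants, against 7122 and 10516 in the wild types. Much of this sum came from *perp*, with 3019 and 3249 in the mutants and 2946 and 2835 in the wild types, and from *pfn1*. *pfn1* had 1583 and 1535 in the mutants, against 1610 and 1719 in the wild types. *icn2*, an ictacalcin of the outer skin, had 88 and 3 in the mutants and 57 and 1577 in the wild types. *tp63*, the regulator of basal skin cells, had 240 and 105 in the mutants, against 110 and 259 in the wild types, and *tfap2a*, an ectodermal transcription factor, 122 and 20 against 23 and 149. *ovol1a* and *grhl3*, regulators of skin barrier formation, were listed at 0 in Mut_2 and WT_1. They had 23 and 6 in Mut_1 and 27 and 9 in WT_2. *ovol1a* averaged 5 or more only through these libraries, and *grhl3* averaged less and is not among the 15. Others of the list did not differ in this way, such as *cdh1*, the epithelial cadherin, with 650 and 632 in the mutants and 636 and 677 in the wild types. The marker counted as lower in both mutants was *agr2*, with 28 and 22 in the mutants and 238 and 313 in the wild types. The 13 keratins together summed to 12333 and 9821 in the mutants and 12307 and 26041 in the wild types. The part of skin RNA in these libraries was not tested.

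Some markers of other tissues differed between mutant and wild type in both pairs of libraries, as did *krt97* and *lad1*. The ionocyte marker *foxi3a* had 1 and 1 normalized counts in the mutants, against 28 and 39 in the wild types, and *atp1b1b* 8 and 1 against 77 and 633. Of 5 ionocyte markers averaging 5 or more, 4 were at least 1.5-fold lower in both mutants (80.0%, against 5.09% of all genes tested). *foxi3a* and *foxi3b* reached that level only through the wild types, which raises this share. *gcm2*, also on the list, averaged less, with 2 and 2 in the mutants and 3 and 2 in the wild types. The list summed to 1554 and 1523 in the mutants and 1774 and 2443 in the wild types. Most of this sum was *atp6v1aa*, which met no 1.5-fold count, with 1531 and 1508 in the mutants and 1634 and 1718 in the wild types. The hatching enzyme *he1.1*, the 1 gene past the adjusted threshold, had 17 and 16 in the mutants, against 987 and 1063 in the wild types. *sox10*, a neural crest marker, had 27 and 36 in the mutants and 2 and 1 in the wild types, higher in both mutants as *jupb* was. Of the 4 neural and neural crest markers, 3 were at least 1.5-fold higher in both mutants (75.0%, against 7.03% of all genes tested). Among these, *sox10* averaged 5 or more only through the mutants. The remaining 1 was lower (25.0%, against 5.09%), *gfap*, with 10 and 5 in the mutants and 11 and 21 in the wild types. The epicardial marker *tbx18* had 47 and 148 in the mutants, against 148 and 48 in the wild types, close to the order of *krt15*. Of 7 epicardial and pericardial markers, 3 were higher in WT_1 and Mut_2 by 1.5-fold (42.9%, against 6.13% of all genes tested). In that contrast 0 were lower (against 6.31%). *wt1a* was higher in both mutants, with 10 and 16 against 7 and 5, and *aldh1a2*, *anxa2a* and *postnb* stayed under 1.5-fold in both pairs of libraries. The part of these tissues in the members' values was not tested. Markers of cardiomyocytes, the muscle cells of the heart, summed to 22124 and 20895 in the mutants and 21124 and 23099 in the wild types, and none of them met a 1.5-fold count.

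**Figure D4:**
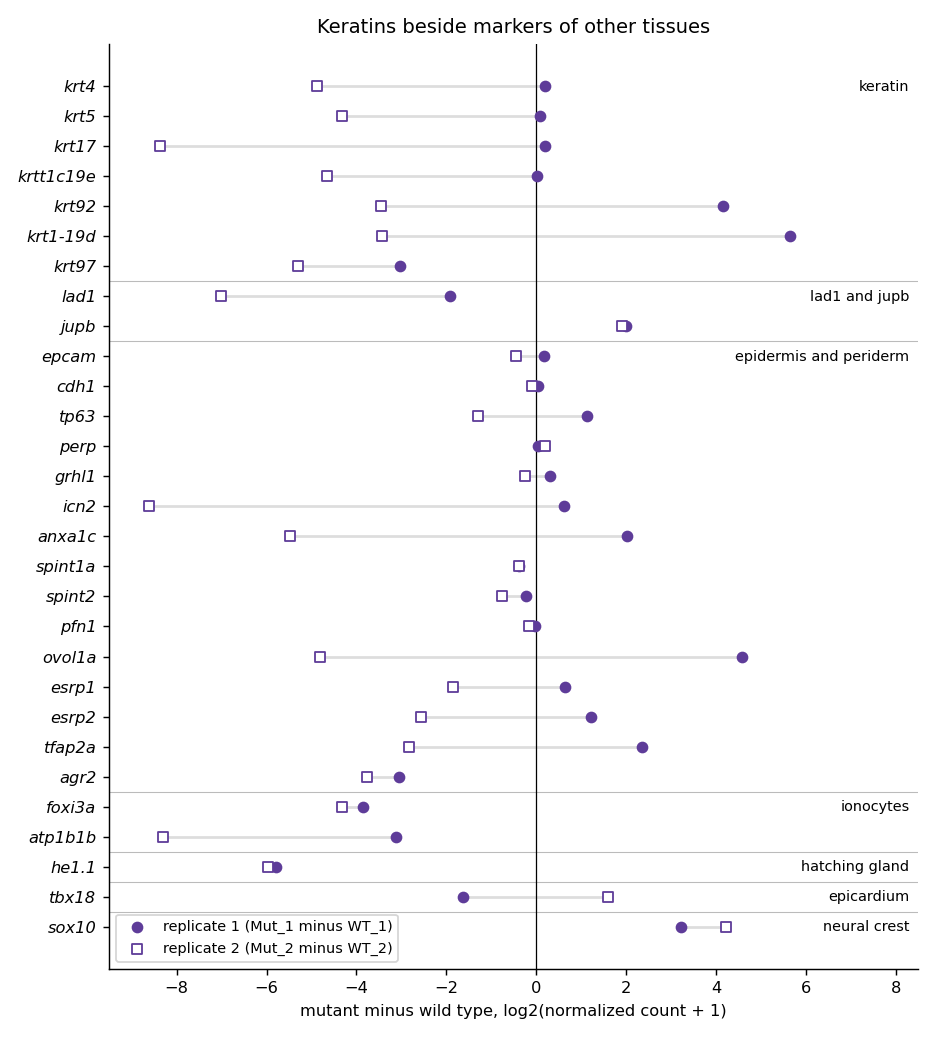
Mutant minus wild-type difference on log2(normalized count + 1) in replicate 1 (filled circles) and replicate 2 (open squares) for chosen keratins, *lad1* and *jupb*, beside the 15 epidermis and periderm markers and markers of other tissues. For *krt4*, *krt5* and *krt17* the circle lies near 0 and the square far to the left. For *krt92*, *krt1-19d*, *ovol1a*, *tfap2a* and *icn2* the circle lies to the right of 0 and the square to the left. For *krt97*, *lad1*, *agr2*, *foxi3a* and *he1.1* both lie to the left.

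The count of members lower in both mutants rested on the replicate 1 libraries. It was 18 without Mut_1 and 18 without WT_1, against 4 with all 4 libraries. The count lower in WT_1 and Mut_2 lay between 17 and 22 when any library was left out. With 1 library left on a side, non-overlap is easier to meet for any gene. The shares over all genes were not counted for these settings, so the rise cannot be read as particular to the members.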

How the data were processed

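Per the labels, total RNA of pooled hearts was made into cDNA with a low-input kit that does not mark strand, and the build was danRer11. The submitters' processing notes name Trimmomatic 0.39, STAR 2.7.10a, Picard 2.27.1, featureCounts 2.0.2 and DESeq2 1.30.1. The authors removed multi-mapping and duplicate reads, counted the rest per gene, normalized the counts with DESeq2 and deposited them rounded to whole numbers, a unit treated here as a score and not as raw counts. Removal of single-end duplicates by start position can compress abundant genes. Without strand, reads of overlapping genes may be confused, and 7 members overlap another gene, 5 of them on the other strand (such as *coro1a* for *cldni*) and 2 on the same strand (*srp68* for *evpla*).

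Genes averaging 5 or more were tested with limma 3.58.1 in R 4.3.3 (lmFit, eBayes with trend) on log2(value + 1), with Benjamini-Hochberg adjustment over all 17501 genes and no block. Fold changes on this scale understate those of low genes. A gene counted as 1.5-fold different when the libraries of both sides did not overlap and their mean log2 values differed by at least that fold. Summaries used Python 3.11.15, pandas 2.3.3 and numpy 2.4.6. The fit was tested on simulated data with independent libraries. These did not lack the difference between replicate numbers, so that test does not bear on the error of the p-values here. The same replicate number is not stated to mark a shared clutch or day.

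The members and lists were chosen with earlier results of these data known. Members were named for the 8 largest genotype and 8 largest crossed differences at a mean of at least 20, the 5 most abundant per family, and a list of genes with known sites. The other members were added after their values were seen. The deposited annotation columns hold no comparison by the authors. Alternatives were other pseudocounts and filters, other scalings, no variance trend, replicate blocks and leaving out each library. No sequences are printed, since the tables used here hold none.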

Additional observations from a re-analysis of the deposited data

How the results depend on the processing

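With 2 libraries per genotype, a gene's spread rests on 2 differences, and the deposited values lack most of the difference between replicate numbers, so limma p-values here do not carry the usual error of such a design. The deviations of same-numbered libraries from their group means correlated at -0.99 over all genes tested and over the members. The main limma fit held no block for the replicate number, while same-numbered differences were used for description. The replicate block gave 0 genes with an adjusted p under 0.05 of all tested and 0 members. The crossed replicate block (WT_1 with Mut_2), added after the data were seen, gave 12169 of 17501 genes and 43 of 53 members. Its error is taken from the difference between replicate numbers alone, which the deposited values almost lack. These counts are therefore no measure of change by genotype.

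The single gene past the adjusted threshold became 0 with no filter on low values, 3 with a mean of at least 20 and 28 without a variance trend, where 1 member passed. Leaving out a library gave 0 such genes each time, since fewer samples entered the fit. A pseudocount of 5 gave 2 members higher in both mutants in place of 4, and a mean of at least 20 gave 2 lower and 2 higher, with fewer members tested. Leaving out 1 library, which makes non-overlap easier to meet for any gene, gave 5 to 18 members lower and 6 to 7 higher in both mutants. It gave 17 to 22 lower and 1 to 6 higher in WT_1 and Mut_2. The median member difference lay between -0.16 and -0.03 by genotype and between -0.21 and -0.19 for the crossed contrast.

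Filters, the variance trend and blocks leave a gene's difference as it is, so its sign was fixed in advance under them. Kept signs therefore bear on the other pseudocounts and scalings alone. Of the 32 members named by rule, 28 kept the sign of the genotype difference under all alternatives that use the 4 libraries. For the crossed difference, 31 kept it. The exceptions lay near 0: the crossed difference of *krt8* was 0.0020 under both rescaling to library totals and median-centring, rescaling to library totals gave 0.016 for *cldn11b* and 0.0051 for *jupa*, and median-centring gave -0.0024 for *dsg2.1* and -0.0098 for *dspb*. Leaving out 1 library turned the sign of 12 genotype differences, with ranges of -2.44 to 0.42 for *cldn1*, -0.036 to 0.028 for *cldn11b*, -0.46 to 0.19 for *cldnb*, -4.92 to 0.11 for *cldne*, -0.25 to 0.27 for *dsg2.1*, -0.15 to 0.16 for *dspb*, -0.054 to 0.024 for *jupa*, -1.22 to 3.43 for *krt1-19d*, -0.17 to 0.27 for *krt18b*, -1.56 to 2.25 for *krt92*, -0.52 to 0.29 for *pkp3a* and -0.71 to 0.39 for *ppl*. It also turned the sign of 8 crossed differences, none of them of a member counted in the crossed order, with ranges of -3.24 to 0.97 for *krt97*, -1.04 to 0.96 for *jupb*, -0.11 to 0.25 for *pkp2*, -0.089 to 0.17 for *dspa* and -0.070 to 0.22 for *cldn15b*, and smaller ones for *krt8*, *krt18a.1* and *pkp3b*.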
